A study of Mus musculus with 6 samples.

Results

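Imprinted genes are transcribed mainly or only from the chromosome inherited from 1 parent. The genes described here are 42 such genes of the mouse, taken by symbol from a list chosen with earlier results of these data known. Of these, 41 have a row among the 23282 rows of counts. Mirg was not analysed here. Of the 41, 34 passed the filter on low counts, as did 12831 of all rows, and 7 did not. RNA came from hippocampi of C57BL/6 mice that were 16 weeks old, in 3 libraries labelled PHF2 t/g and 3 labelled wild type (WT). PHF2 is a demethylase of lysine 9 on histone H3, and the labels do not spell out t/g or the short form Tg. A Phf2 transgene is the usual meaning, and no construct, driving promoter or insertion site is described. Both groups share strain, age and tissue, and nothing in the labels says that the 3 libraries of a group came from separate animals, so a p-value here measures library spread only, which may be technical.

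Most imprinted genes lie in clusters, each governed by a control region whose DNA is methylated on 1 parental chromosome. In many clusters a long noncoding RNA is made from one parental chromosome while neighbouring coding genes are made from the other. Methylation of histone H3 lysine 9 is among the marks that hold the silent copy. In the brain, imprinted genes are known for roles in growth, feeding, maternal care and neuronal development, and several are expressed most strongly in the hypothalamus. The animals are of an inbred strain and the files hold 1 count per gene, so the parental copies are not separated. The parent assigned to each gene below is background knowledge, drawn from any tissue. It was not checked in hippocampus, where some of these genes may be made from both copies. Of the 42 genes, 23 are assigned to the paternal copy and 16 to the maternal copy. The other 3 (Grb10, Ddc and Gnas) are assigned to a copy that depends on tissue or promoter.

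The libraries were made with the QuantSeq kit, which counts about 1 tag per transcript, close to its 3′ end. Levels are therefore given as CPM, 3′ tag counts per 1e6 counts of a library, with library totals scaled by TMM, a method that sets most genes equal between libraries, and they need no division by transcript length. Library totals ranged from 5512171 to 8844718 counts, and the imprinted genes took 1.01% to 1.03% of the counts in WT and 1.28% to 1.36% in PHF2 t/g. Meg3 alone made up 65.6% to 73.2% of those counts. Phf2 itself read 35.5, 37.3 and 43.1 CPM in the PHF2 t/g libraries and 38.3, 35.6 and 39.3 CPM in WT (log2 fold change 0.033, 95% interval −0.20 to 0.27; edgeR adjusted p = 0.929). The tags sit at the native 3′ end, which a construct may lack, and the labels therefore have no check from Phf2. WT replicate 2 was the lowest of the 6 libraries in 25.8% of all tested genes and in 12 of the 34 tested imprinted genes. It was also the highest in 22.1% of all tested genes and in 5 of the 34.

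In the hippocampus labelled PHF2 t/g, 4 imprinted genes rose and none fell. Dlk1, a membrane protein of the Notch ligand type that restrains differentiation, rose 3.20-fold. Asb4, a subunit of ubiquitin ligases, rose 2.80-fold at a low level, Kcnq1ot1, the noncoding RNA that silences its cluster in cis, rose 1.37-fold, and Meg3, the abundant noncoding RNA next to Dlk1, rose 1.28-fold. Over all tested genes 0.779% were called higher and 1.49% lower by edgeR's quasi-likelihood test with a Benjamini-Hochberg adjusted p under 0.05, against 4 and 0 of the 34 imprinted genes (2.27% of all tested genes were called in either direction). DESeq2 and limma-voom each called 3 imprinted genes higher and none lower. A further 30 did not pass, among them 6 with an unadjusted p under 0.05 and a higher mean and 3 with a lower one (Rian, Mest and Copg2). The tags of Mest and Copg2 cannot be told apart, as described below. Of all tested genes, 14.7% had an unadjusted p under 0.05 in either direction. The median log2 fold change of the 34 was 0.14, against 0.02 for all tested genes. With 1 library left out the median of the 34 ranged from 0.086 (without WT replicate 2) to 0.20 (without WT replicate 1), and its gap to all tested genes from 0.079 to 0.19.

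**Figure D1:**
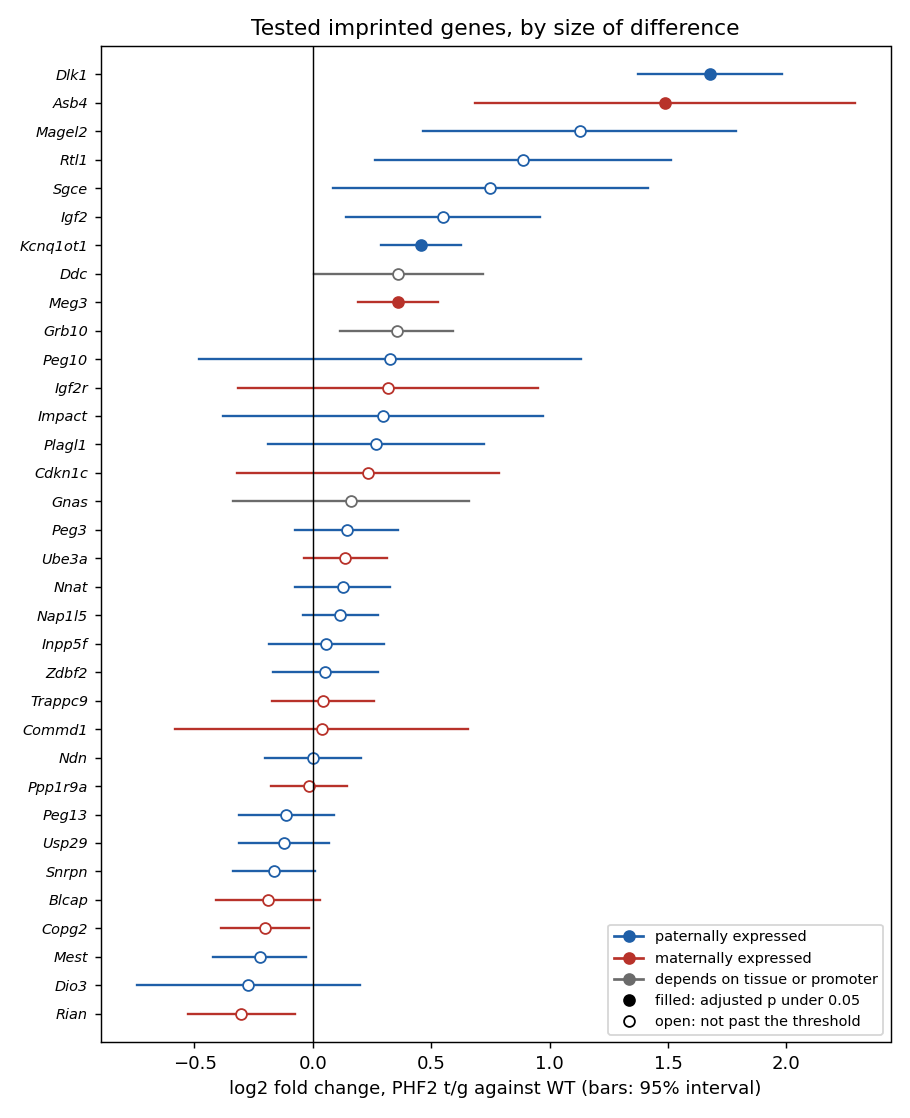
Log2 fold change (x axis, PHF2 t/g against WT) of each of the 34 tested imprinted genes (rows), with its 95% interval as a bar. Colour gives the parental copy assigned to the gene. The 4 filled points passed the adjusted threshold and all lie to the right of 0, from 0.36 (Meg3) to 1.68 (Dlk1), while the 30 open points did not pass.

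The sequences before the starts of these 4 genes are printed because the genes that moved come from 3 clusters and differ in their promoters. Each is the 250 bases before a RefSeq start (GRCm38.p6), 5′ to 3′ on the gene's strand. Capitals mark a match, on either strand, to TGCCGC (bound by the imprint-keeping protein ZFP57), GCCAT (the core of YY1 sites) or TGACGTCA (the cAMP response element, CRE). The Dlk1 window lies before the main GENCODE start, within a RefSeq gene span that begins further upstream. Dlk1 is at chr12:109452573-109452822, plus strand, Meg3 at chr12:109540746-109540995, plus strand, Kcnq1ot1 at chr7:143296548-143296797, minus strand, and Asb4 at chr6:5383136-5383385, plus strand.
Dlk1: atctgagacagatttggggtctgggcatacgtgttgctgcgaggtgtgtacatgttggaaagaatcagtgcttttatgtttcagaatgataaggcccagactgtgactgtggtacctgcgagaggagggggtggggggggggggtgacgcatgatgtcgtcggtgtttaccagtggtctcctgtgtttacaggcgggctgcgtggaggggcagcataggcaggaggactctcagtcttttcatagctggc
Meg3: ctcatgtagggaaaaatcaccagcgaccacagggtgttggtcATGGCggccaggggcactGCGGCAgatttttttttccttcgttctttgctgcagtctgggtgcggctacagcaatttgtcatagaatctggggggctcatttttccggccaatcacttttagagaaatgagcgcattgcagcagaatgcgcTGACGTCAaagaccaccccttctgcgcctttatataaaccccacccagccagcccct
Kcnq1ot1: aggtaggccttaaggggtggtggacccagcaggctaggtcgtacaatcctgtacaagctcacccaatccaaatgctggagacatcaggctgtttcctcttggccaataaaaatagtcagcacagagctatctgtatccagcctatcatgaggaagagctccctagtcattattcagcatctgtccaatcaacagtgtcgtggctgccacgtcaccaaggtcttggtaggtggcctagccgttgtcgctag
Asb4: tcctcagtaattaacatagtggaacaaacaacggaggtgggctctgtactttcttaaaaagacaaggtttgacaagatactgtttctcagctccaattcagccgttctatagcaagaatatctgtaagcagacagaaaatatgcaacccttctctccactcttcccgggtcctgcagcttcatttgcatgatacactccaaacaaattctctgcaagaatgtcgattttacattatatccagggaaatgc

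Only the Meg3 window among these 4 holds any of the motifs, 1 match to each, and the matches do not overlap. It has 10 CpG dinucleotides, against 8 for Dlk1, 5 for Kcnq1ot1 and 4 for Asb4. Meg3 and Asb4 have a further window each. That of Meg3 (chr12:109545148-109545397) holds 0 CpG dinucleotides and that of Asb4 (chr6:5390160-5390409) holds 8, and neither holds a motif. Windows were found for 34 of the 42 symbols. Taking the first window listed for each gene, 20.6% of the imprinted genes hold TGCCGC, against 8.6% of 27025 genes, 38.2% hold GCCAT, against 32.9%, and 5.9% hold TGACGTCA, against 1.6%. The median number of CpG dinucleotides was 10.5, against 6. A match is a run of letters and not a site shown to be bound.

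The cluster on chromosome 12 between Dlk1 and Dio3 held the largest difference and the most abundant RNA. Its paternal copy makes the coding genes Dlk1, Rtl1, derived from a retrotransposon, and Dio3, an enzyme that inactivates thyroid hormone. Its maternal copy makes Meg3, Rian and other noncoding RNAs. Dlk1 (109452485 to 109463336) read 39.6, 46.9 and 38.1 CPM in PHF2 t/g and 16.0, 11.98 and 11.3 CPM in WT. All 3 PHF2 t/g libraries lay far above the WT libraries, with a gap larger than the whole range within either group. The means were 41.5 ± 4.67 and 13.1 ± 2.52 CPM (SD, n = 3), a log2 fold change of 1.68 (SE 0.145; edgeR adjusted p = 2.5e-06), and the call held without each library in turn.

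Meg3 lies 77.7 kb downstream of Dlk1 (109540996 to 109571729) and ranked 4 among the 12831 tested genes by mean CPM. It read 8803, 9243 and 9689 CPM in PHF2 t/g and 7382, 7472 and 6768 CPM in WT. The groups did not overlap, but the step was small beside that of Dlk1 (log2 fold change 0.36, SE 0.080; edgeR adjusted p = 0.0226). The call of Meg3 ended when any single PHF2 t/g library was left out, and also without WT replicate 1 or WT replicate 3 (edgeR adjusted p of 0.0551 to 0.126), and the fold change then stayed between 0.31 and 0.39.

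Rian, the noncoding RNA 32.2 kb further on and the host of a family of small nucleolar RNAs, lay on the other side of 0. It read 389, 452 and 438 CPM in PHF2 t/g and 431, 575 and 570 CPM in WT, so the groups overlapped through WT replicate 1. It did not pass (log2 fold change −0.30, SE 0.105; edgeR adjusted p = 0.174), except without WT replicate 1 (−0.44; edgeR adjusted p = 0.0147) and without the low-count filter (−0.31; edgeR adjusted p = 0.0125). The count of Meg3 per count of Rian was 22.6, 20.5 and 22.1 in PHF2 t/g and 17.1, 13.01 and 11.9 in WT, a ratio within each library that was chosen after the values were seen and was not tested.

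The other coding genes of the cluster were scarce. Rtl1 read 4.66, 4.26 and 4.99 CPM in PHF2 t/g and 3.43, 1.88 and 2.42 CPM in WT. These groups did not overlap, yet Rtl1 did not pass (log2 fold change 0.89, SE 0.298; edgeR adjusted p = 0.139). Dio3 read 6.00, 9.23 and 6.11 CPM in PHF2 t/g against 10.7, 7.52 and 7.87 CPM in WT and did not pass either (−0.27, SE 0.225; edgeR adjusted p = 0.627). RefSeq places Rtl1 (109564900 to 109604418) across the 3′ end of Meg3, whereas in GENCODE M21 (109589193 to 109600330) Rtl1 does not overlap Meg3. The annotation and strand setting used in counting are not given, and whether the rows of Rtl1 and Meg3 share tags was not tested.

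**Figure D2:**
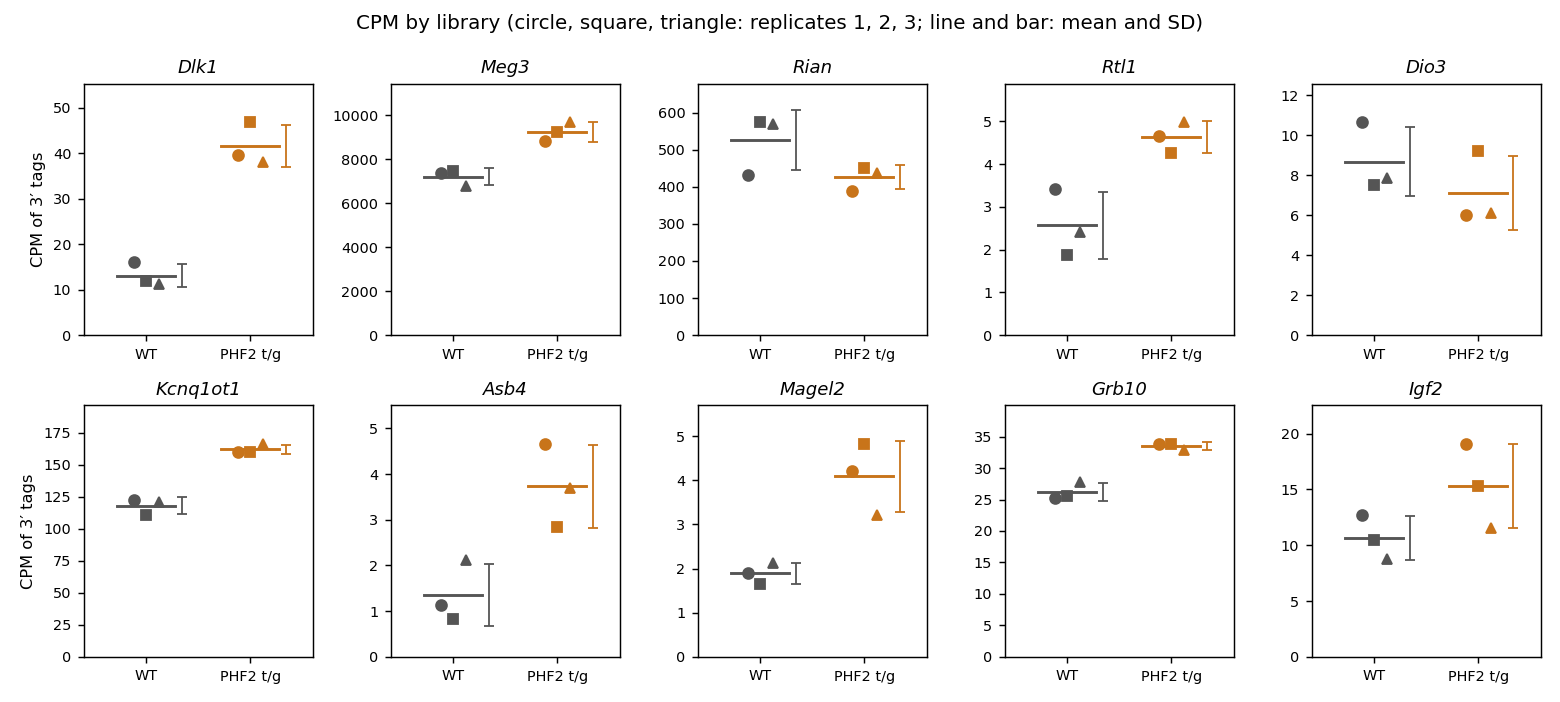
CPM of 3′ tags (y axis, from 0) of 10 imprinted genes in the WT and PHF2 t/g libraries, with replicates 1, 2 and 3 as circle, square and triangle, the mean as a line and the SD as a bar. For Dlk1 the PHF2 t/g libraries sit between 38.1 and 46.9 CPM and the WT libraries between 11.3 and 16.0 CPM, whereas for Rian and Dio3 the groups overlap.

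In the Kcnq1ot1 cluster of chromosome 7, Kcnq1ot1 is made from the paternal copy, its promoter lying in the control region of the cluster, and Cdkn1c, an inhibitor of cell division, and Phlda2, a regulator of placental growth, from the maternal copy. Kcnq1ot1 (143213111 to 143296547) read 160, 160 and 166 CPM in PHF2 t/g and 123, 110 and 121 CPM in WT. The libraries within each group were close together and the groups well apart, with a log2 fold change of 0.46 (SE 0.081; edgeR adjusted p = 0.00449). Without PHF2 t/g replicate 1 the call ended (0.47; edgeR adjusted p = 0.0542). Kcnq1, the potassium channel gene on the opposite strand that overlaps Kcnq1ot1, read 0 to 0.483 CPM over the 6 libraries. Cdkn1c, 162 kb away, read 7.22, 4.12 and 7.24 CPM in PHF2 t/g and 5.90, 5.99 and 3.93 CPM in WT, and its libraries were intermixed (log2 fold change 0.23, SE 0.264; edgeR adjusted p = 0.739). Phlda2 had 1 count in all 6 libraries together.

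In the chromosome 6 cluster around Peg10 and Sgce, Asb4 is known from the maternal copy. Asb4 (5383386 to 5433022) read 4.66, 2.84 and 3.70 CPM in PHF2 t/g and 1.14, 0.822 and 2.12 CPM in WT. The groups did not overlap, at a log2 fold change of 1.49 (SE 0.383; edgeR adjusted p = 0.0491). That value is close to the threshold, and the call ended without any 1 library but WT replicate 3 (edgeR adjusted p of 0.0924 to 0.349) and with limma-voom (0.0876). Without PHF2 t/g replicate 1 and WT replicate 2 together the log2 fold change was 0.95 (edgeR adjusted p = 0.411).

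The neighbours of Asb4 did not pass. Ppp1r9a, also maternal and a neuronal scaffold that binds actin, read 194 to 208 CPM in PHF2 t/g and 195 to 209 CPM in WT, with a log2 fold change of −0.016 (95% interval −0.18 to 0.14; 0.086 with library size alone). Sgce, which encodes epsilon-sarcoglycan, a protein linked to myoclonus dystonia, starts 101 bases from Peg10 and is paternal like it. Sgce read 6.22, 5.82 and 6.76 CPM in PHF2 t/g against 3.81, 1.88 and 5.75 CPM in WT (log2 fold change 0.75, SE 0.315; edgeR adjusted p = 0.263), and the value was 0.36 without WT replicate 2. Peg10, a gag-pol derived gene needed for the placenta, read 1.67 to 3.27 CPM and 1.36 to 2.23 CPM, and its groups overlapped. Calcr, the calcitonin receptor, was below the filter with 15 PHF2 t/g counts in all and 4 WT counts, or 3.68 times as many per total count, with an exact 95% interval of 1.17 to 15.2 for counting error only.

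The Snrpn to Ube3a cluster of chromosome 7 corresponds to the region of Prader-Willi and Angelman syndromes. Its paternal genes include Ndn and Magel2, of the MAGE family, and Snrpn, a splicing protein of neurons. Magel2, best known from the hypothalamus, read 4.22, 4.83 and 3.22 CPM in PHF2 t/g and 1.90, 1.64 and 2.12 CPM in WT. The groups did not overlap, yet Magel2 did not pass (log2 fold change 1.13, SE 0.316; edgeR adjusted p = 0.0716). It passed with library size alone (1.23; edgeR adjusted p = 0.0489) and without the low-count filter (1.12; edgeR adjusted p = 0.0394). Ndn, its neighbour, was level at 72.3 to 74.2 CPM in PHF2 t/g and 67.4 to 80.5 CPM in WT, with a log2 fold change of 0.0016 (95% interval −0.20 to 0.20).

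Ube3a, the ubiquitin ligase made from the maternal copy in neurons, read 172, 153 and 167 CPM in PHF2 t/g and 162, 142 and 143 CPM in WT (log2 fold change 0.14, SE 0.084; edgeR adjusted p = 0.477). Snrpn read 234.8, 249.4 and 234.1 CPM in PHF2 t/g and 240, 289 and 274 CPM in WT (−0.16, SE 0.083; edgeR adjusted p = 0.373). Neither gene passed, and their groups overlapped. Mkrn3 and Peg12, both paternal, were below the filter with 14 and 6 PHF2 t/g counts and 24 and 2 WT counts.

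Snrpn shares its transcript with Snurf, a separate row. The count of Snrpn was 0.948 to 0.964 of that of Snurf in every library. The log2 of this ratio had an SD of 0.0095 within groups, where independent counting of these numbers of tags would give 0.049. The Mest to Copg2 pair on chromosome 6 showed the same. Mest, a hydrolase made from the paternal copy, and Copg2, a coat protein of vesicles known from the maternal copy, lie on opposite strands and overlap by 913 bases at their 3′ ends. The count of Mest was 0.873 to 0.919 of that of Copg2 in every library, with an SD of the log2 ratio of 0.031, against 0.089 from counting. Both pairs of rows varied together more closely than independent tag counts would, so their tags cannot be told apart and their levels are uncertain. Mest read 63.1, 65.5 and 71.6 CPM in PHF2 t/g and 74.6, 78.4 and 80.5 CPM in WT. Copg2 read 72.3, 74.4 and 78.2 CPM against 83.8, 87.1 and 87.6 CPM. For both the PHF2 t/g libraries lay below all WT libraries, and neither passed (log2 fold change −0.23 and −0.20; edgeR adjusted p = 0.257 and 0.286).

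**Figure D3:**
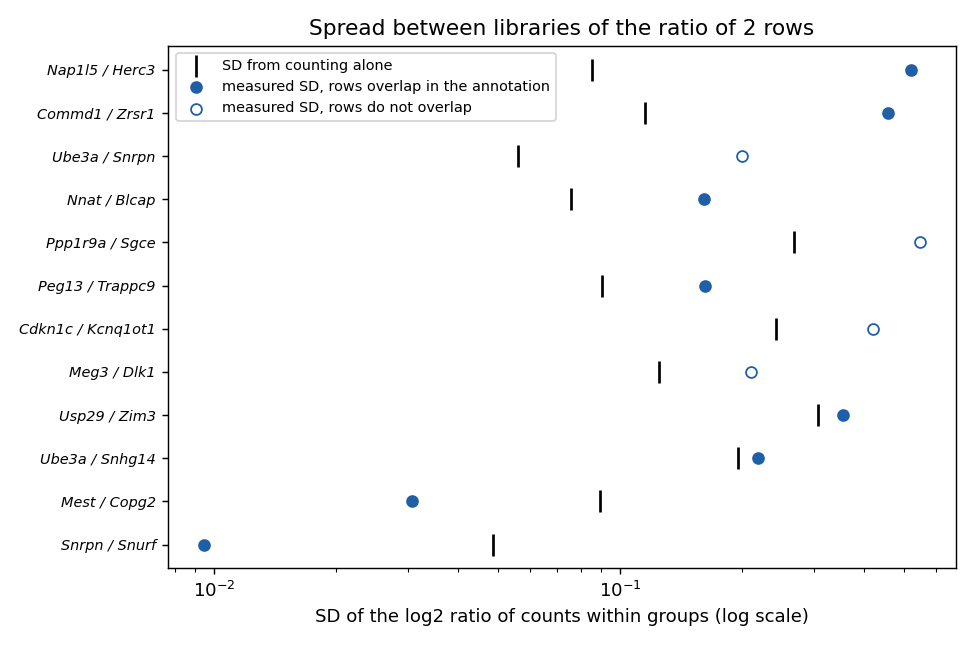
SD of the log2 ratio of counts of 2 rows within groups (x axis, log scale; points), beside the SD that independent counting would give (black ticks), for 12 pairs of rows with at least 10 counts in every library. Mest with Copg2 (0.031 against 0.089) and Snrpn with Snurf (0.0095 against 0.049) are the pairs whose points lie left of their ticks.

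Ratios of neighbours assigned to opposite parental copies do not depend on the scaling of libraries. Of 10 such pairs, 7 had at least 10 counts of each gene in every library. Group labels of the 6 libraries were permuted exactly and two-sided for each pair, where 0.1 is the smallest possible p. Meg3 was counted 222, 197 and 254 times per Dlk1 count in PHF2 t/g and 462, 623 and 596 times in WT. The ratio was lower in all 3 PHF2 t/g libraries, a difference of −1.32 in log2 ratio (exact permutation p = 0.1; adjusted over the 7 pairs 0.233). The ratio of Ppp1r9a to Sgce differed by −0.87 and that of Blcap to Nnat by −0.33, each with the same p and no overlap between the groups. WT replicate 2 had the highest ratio of Ppp1r9a to Sgce (103.9, against 52.8 and 36.4 in the other WT libraries), and without it the difference was −0.46. With 1 library left out the differences ranged from −1.21 to −0.46 for Ppp1r9a to Sgce and from −0.43 to −0.24 for Blcap to Nnat, with exact permutation p of up to 0.2. The ratios of Ube3a to Snrpn (0.29), Trappc9 to Peg13 (0.16) and Cdkn1c to Kcnq1ot1 (−0.25) overlapped between the groups, with exact permutation p of 0.2 to 0.5. The pair of Copg2 and Mest, counted among the 7, gives no information on the parental copies, since its tags cannot be told apart.

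Nnat, a small membrane protein of developing neurons made from the paternal copy, lies within an intron of Blcap, whose main brain transcript is maternal. Nnat read 131, 129 and 114 CPM in PHF2 t/g and 126, 117 and 99.7 CPM in WT (log2 fold change 0.13, SE 0.095; edgeR adjusted p = 0.586). Blcap read 84.0, 107 and 80.3 CPM against 105, 105 and 99.1 CPM (−0.19, SE 0.104; edgeR adjusted p = 0.425). In both genes the groups overlapped. The noncoding RNA Peg13 (132 to 175 CPM in PHF2 t/g, 157 to 177 CPM in WT; log2 fold change −0.11) and Trappc9 (46.4 to 51.6 CPM and 44.5 to 49.7 CPM; 0.044), the vesicle transport gene that contains it, did not pass either.

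Among genes of growth control, Grb10, an adaptor that restrains insulin signalling and is made from the paternal copy in neurons, read 33.9, 33.8 and 32.8 CPM in PHF2 t/g and 25.3, 25.5 and 27.8 CPM in WT. The groups did not overlap, but Grb10 did not pass (log2 fold change 0.35, SE 0.114; edgeR adjusted p = 0.121), other than with library size alone (0.45; edgeR adjusted p = 0.0462). Its neighbour Ddc, which makes dopamine and serotonin from their precursors, read 15.3 to 20.8 CPM in PHF2 t/g and 10.9 to 15.4 CPM in WT (0.36, SE 0.170; edgeR adjusted p = 0.332). Igf2, a growth factor that in adult brain comes largely from choroid plexus and leptomeninges, read 19.1, 15.3 and 11.6 CPM in PHF2 t/g and 12.8, 10.5 and 8.78 CPM in WT. Its groups overlapped and it did not pass (0.55, SE 0.194; edgeR adjusted p = 0.164). H19, the noncoding RNA next to it, had 1 count in each group, which leaves no ratio to give. Plagl1, a zinc finger factor that regulates other imprinted genes, read 7.55 to 10.5 CPM and 5.45 to 8.19 CPM (0.27; edgeR adjusted p = 0.62).

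Several members, among them the abundant Impact and Gnas, were low in WT replicate 2 alone among the WT libraries. Impact, which restrains the kinase GCN2, read 344, 270 and 280 CPM in PHF2 t/g and 288, 166 and 276 CPM in WT. Gnas, the stimulatory G protein, read 487, 542 and 608 CPM in PHF2 t/g and 569, 356 and 539 CPM in WT. Igf2r, a receptor that clears Igf2, read 27.3, 24.0 and 21.1 CPM in PHF2 t/g and 25.5, 11.7 and 22.2 CPM in WT. Commd1, a copper and trafficking protein, read 28.6, 30.8 and 23.2 CPM against 34.3, 17.0 and 30.7 CPM. In each of these genes WT replicate 2 was the lowest of the 6 libraries and the remaining WT libraries lay near those of PHF2 t/g. None passed, at log2 fold changes of 0.30, 0.16, 0.32 and 0.037. Without WT replicate 2 those of Impact, Gnas and Igf2r were 0.081, −0.022 and 0.032. Airn, the antisense partner of Igf2r, was below the filter with 6 and 4 counts.

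**Figure D4:**
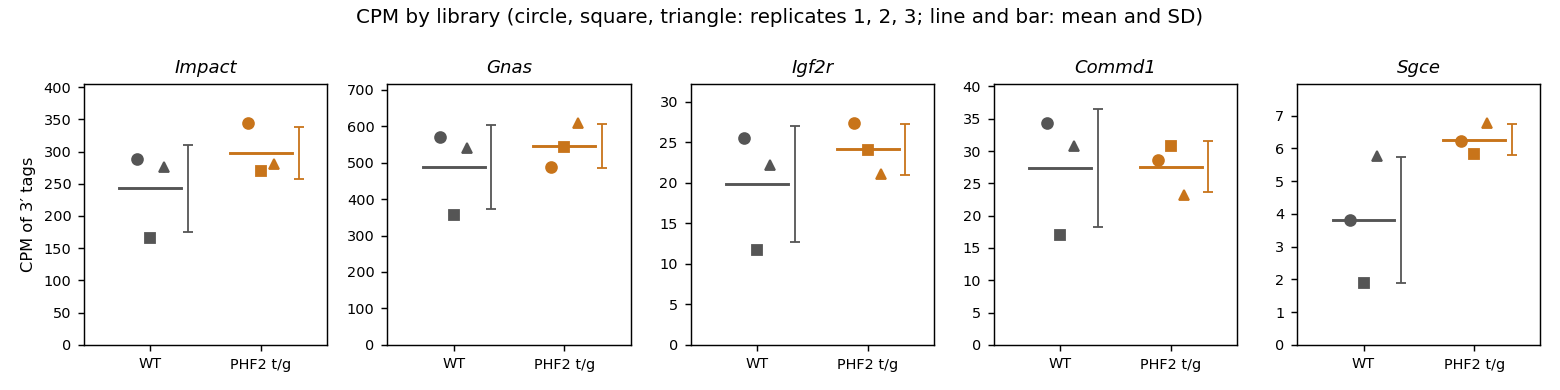
CPM of 3′ tags (y axis, from 0) of Impact, Gnas, Igf2r, Commd1 and Sgce by library, with replicates 1, 2 and 3 as circle, square and triangle, the mean as a line and the SD as a bar. The WT square, replicate 2, is the lowest point in every panel, at 166 CPM for Impact and 356 CPM for Gnas.

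The remaining members stayed within a log2 fold change of 0.2. Nap1l5, related to histone chaperones, read 415 to 424 CPM in PHF2 t/g and 367 to 416 CPM in WT (0.12; edgeR adjusted p = 0.512). Peg3, a zinc finger gene studied for maternal care, read 57.7 to 65.0 CPM and 49.9 to 60.6 CPM (0.14; edgeR adjusted p = 0.564), and Usp29, its paternal neighbour, 67.7 to 71.4 CPM and 73.7 to 78.1 CPM (−0.12; edgeR adjusted p = 0.581). Zdbf2 (38.8 to 42.5 CPM and 38.1 to 41.1 CPM) and Inpp5f (31.2 to 34.5 CPM and 29.1 to 33.9 CPM) were level. Zim1, the maternal gene of the Peg3 cluster, was below the filter with 8 and 9 counts. In all, 15 of the 34 tested genes lay within 0.2 of 0 and 6, or 17.6%, at or beyond 0.5 in either direction, namely Dlk1, Asb4, Magel2, Rtl1, Sgce and Igf2, where 982 of all 12831 tested genes, or 7.65%, were that far from 0.

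By parental copy, 2 of 20 tested paternal genes rose (Dlk1 and Kcnq1ot1), with a median log2 fold change of 0.13 over the 20, and 2 of 11 tested maternal genes (Meg3 and Asb4), with a median of 0.044. The 3 genes of mixed expression had a median of 0.35 and none passed. No gene fell in any of these classes, and whether the classes differ was not tested. Of 4 tested noncoding RNAs, 2 rose, and of 30 coding genes 2 rose. Over all tested genes 0.779% were called higher and 1.49% lower, and the median log2 fold change was 0.02. The groups did not overlap in 8 tested imprinted genes with higher and 3 with lower PHF2 t/g values (Usp29, Mest and Copg2), where 10.1% and 10.4% of all tested genes did so. Mest and Copg2, whose tags cannot be told apart, are counted here as 2 genes.

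Other genes known to be imprinted, many of them in placenta only, gave no calls. Of 47 such genes 28 were tested and none passed, where 2.27% of all tested genes were called in either direction. Of the 28, 12 lay above 0, and the median log2 fold change was −0.029, against 0.02 for all tested genes. At an unadjusted p under 0.05, 3 were higher and 2 lower, where 14.7% of all tested genes were under it in either direction. The smallest p belonged to Snhg11, an abundant neuronal noncoding RNA, at 2213, 2208 and 2420 CPM in PHF2 t/g and 1805, 2034 and 1845 CPM in WT (0.27; edgeR adjusted p = 0.0873), and to Zrsr1, a splicing factor gene inside Commd1, at 153, 155 and 158 CPM against 176, 194 and 186 CPM (−0.25; edgeR adjusted p = 0.0979). In both the groups did not overlap. Snhg11 passed with library size alone (edgeR adjusted p = 0.0174), without the low-count filter (0.0426) and without WT replicate 2 (0.0105).

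Of 32 genes that set, keep or read imprints, 27 were tested, and their median was −0.067. Of the 27, 1 rose and none fell, where 0.779% and 1.49% of all tested genes did so. At an unadjusted p under 0.05, 1 was higher and 2 were lower, where 14.7% of all tested genes were under it in either direction. The list summed to 1715 to 1763 CPM in PHF2 t/g and 1791 to 1831 CPM in WT, lower in every PHF2 t/g library. The groups did not overlap in 4 genes with lower values and 2 with higher ones, where 10.4% and 10.1% of all tested genes did so. The 4 were Ctcf, which binds control regions of imprinted clusters (log2 fold change −0.33; edgeR adjusted p = 0.0612), Suv39h1, Tet3 and Atrx, chosen after their values were seen. Tet2, which oxidises methylated cytosine, read 20.2, 19.5 and 21.2 CPM in PHF2 t/g and 12.8, 13.6 and 13.6 CPM in WT, with no overlap (log2 fold change 0.60, SE 0.140; edgeR adjusted p = 0.0289). Its call ended without any 1 library but WT replicate 2 (edgeR adjusted p of 0.0655 to 0.178). Zfp57, the zinc finger protein that recognises methylated imprints, was below the filter, at 0.555 to 1.45 CPM in PHF2 t/g and 0.303 to 1.90 CPM in WT.

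Some marker genes of neighbouring tissues differed between the same groups, and a few genes carry most of each sum. These lists were chosen with earlier results of these data known, so their counts and sums describe and do not test. Over all tested genes 0.779% were called higher. The hypothalamus list summed to 166 to 178 CPM in PHF2 t/g and 117 to 128 CPM in WT. Of its 31 genes 12 were tested and 4 rose, the hormone precursors Avp, Oxt and Trh and the adaptor Irs4. Avp averaged 27.3 CPM for PHF2 t/g against 0.284 CPM for WT, and Oxt 16.0 against 0.129 CPM. Their WT values rest on 6 and 3 counts in all. Baiap3, the most abundant gene of the list, was lower on average (66.4 against 72.8 CPM) and did not pass. Of the 12, 8 lay above 0 in log2 fold change and 4 below. Hdc, which makes histamine, lay lower without overlap (log2 fold change −0.99; edgeR adjusted p = 0.0946). Of the transcription factors in that list, Otp, Nkx2-4, Six6 and Gsx1 had no count in any library. Tbx3 had 94 counts over PHF2 t/g and 79 over WT, Nkx2-1 had 13 and 6, Rax 10 and 11, and Fezf1 5 and 7. Gal, a peptide gene below the filter, had 32 counts over PHF2 t/g and 5 over WT, without overlap between the groups. Other peptide genes below the filter were Pmch with 12 and 14, Hcrt 7 and 9, Agrp 4 and 2 and Ghrh 1 and 0. Leptomeningeal markers summed to 186 to 201 CPM in PHF2 t/g and 104 to 138 CPM in WT (1 of 12 tested rose), where Mgp, an inhibitor of calcification, read 112 and 43.6 CPM on average and Dcn and Bgn were lower on average and did not pass. Striatal markers summed to 815 to 936 CPM in PHF2 t/g and 628 to 720 CPM in WT. Of 9 tested 3 rose, Penk (1.65-fold), Tac1 (1.68-fold) and Rgs9 (1.43-fold), and Adora2a, at a log2 fold change of −0.33, did not pass. In that list Drd2 had 1 count over PHF2 t/g and 3 over WT, Gpr6 0 and 1, and Ido1 10 and 5. Endothelial markers summed to 195 to 214 CPM in PHF2 t/g and 145 to 173 CPM in WT (4 of 11 rose, and Cldn5 at −0.59 did not pass). Choroid plexus markers summed to 579 CPM in PHF2 t/g replicate 1 and to 144 to 165 CPM in the other libraries (4 of 16 tested, 0 called). In those other libraries Enpp2 alone read 132 to 149 CPM. Clic6 read 15.9, 5.68 and 8.69 CPM in PHF2 t/g and 2.09, 3.64 and 2.87 CPM in WT. Its groups did not overlap and it did not pass (edgeR adjusted p = 0.0614). Ttr read 292, 3.69 and 1.29 CPM against 2.86, 4.46 and 2.27 CPM, and its groups overlapped. Igf2 was also highest in PHF2 t/g replicate 1, and without it the log2 fold change of Igf2 was 0.35 (edgeR adjusted p = 0.654). Hippocampal neuron markers, which check the tissue, summed to 660 to 876 CPM in PHF2 t/g and 746 to 894 CPM in WT, with 12 of 13 tested and 1 risen. The part of all these markers in the values of Dlk1, Asb4, Magel2, Igf2 and the other imprinted genes was not tested, and fewer cells of a type cannot be told apart from less RNA per cell in whole tissue.

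**Figure D5:**
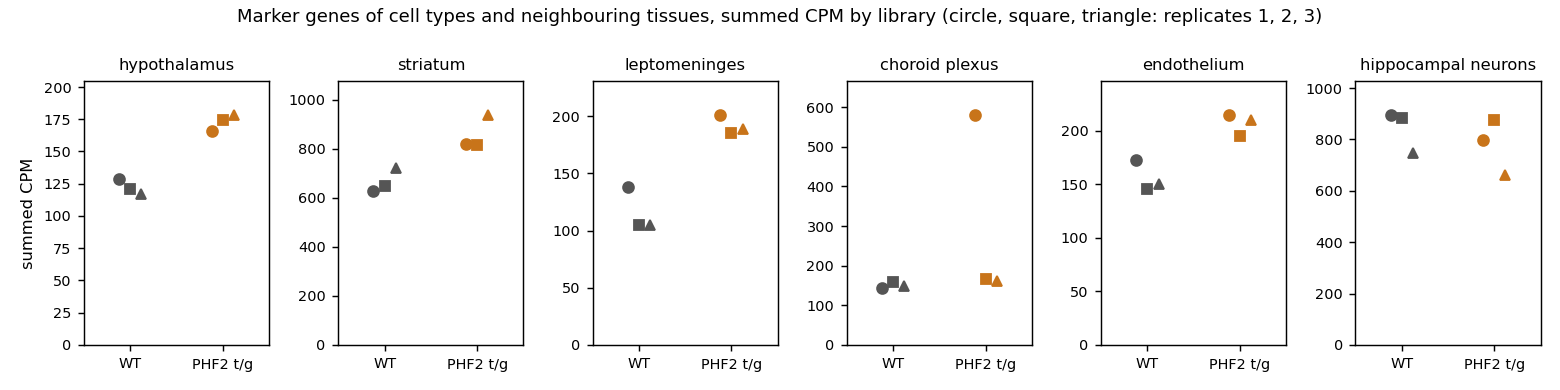
Summed CPM (y axis, from 0) of 6 marker lists in each library, with replicates 1, 2 and 3 as circle, square and triangle. The lists were chosen with earlier results of these data known. The PHF2 t/g libraries lie above all WT libraries for hypothalamus (166 to 178 against 117 to 128 CPM), striatum, leptomeninges and endothelium. Within the hypothalamus list Avp averaged 27.3 CPM for PHF2 t/g against 0.284 CPM for WT, and Oxt 16.0 against 0.129 CPM, while Baiap3 was lower (66.4 against 72.8 CPM). The leptomeninges sum rests largely on Mgp, at 105 to 119 CPM in PHF2 t/g and 37.6 to 52.7 CPM in WT. For choroid plexus the sum of PHF2 t/g replicate 1 stands out at 579 CPM, and the other libraries lie at 144 to 165 CPM, mostly from Enpp2.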

How the data were processed

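RNA was extracted with Trizol and made into 3′ end QuantSeq libraries, per the labels' protocols. Bowtie2, edgeR and the build mm10 are named in the submitters' processing notes. Tool versions, annotation, counting program and strand setting are not given in the sources used. The authors deposited a file of raw counts for each library, keyed by gene symbol, of 23282 rows, 44 of which repeat a symbol and none an imprinted gene. Titles gave group and replicate number.

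Rows were kept by filterByExpr, scaled by TMM and tested with edgeR 4.0.16 in R 4.3.3 (robust glmQLFit, glmQLFTest, genotype only), with Benjamini-Hochberg adjustment over 12831 rows and a threshold of 0.05. SE were taken from the F statistic and intervals are at 95%. The procedure was tested on simulated data. Named genes are Phf2, members past the threshold, the 12 smallest p, the 8 most abundant, the 10 neighbour pairs, and for the other lists those past the threshold or the 2 smallest p. Other genes were named after their values were seen. Members and lists were chosen with earlier results of these data known. Coordinates and promoters are RefSeq's (GRCm38.p6), overlaps GENCODE M21's. Alternatives used limma 3.58.1 and DESeq2 1.42.0.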

Additional observations from a re-analysis of the deposited data

How the results depend on the processing

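Of 29 named genes, 414 of 457 alternative values kept direction and side of the threshold, 21 lost a call, 12 gained one and 10 changed sign. Over all genes the main counts were 100 higher and 191 lower. They were 207 and 70 with library size alone (74.7% higher against 34.4%, the median of all genes moving from 0.02 to 0.12), 53 and 109 with limma-voom, 229 and 377 without the low-count filter, 51 and 98 without the robust fit, 193 and 354 at an adjusted p of 0.10, 47 and 93 with WT replicate 2 and PHF2 t/g replicate 1 both left out, and 24 to 129 and 25 to 263 with 1 library left out. DESeq2 called 50 higher and 220 lower (18.5% higher), with an adjusted p for 6234 genes. The 4 imprinted genes called higher were 2 without the robust fit (Dlk1 and Kcnq1ot1) and 1 to 3 with 1 library left out, Dlk1 alone being called without PHF2 t/g replicate 1. They were 6 with library size alone, where the median of the imprinted genes was 0.24, and 0.121 above that of all genes, as with TMM. The count called lower was 1 (Rian) without the low-count filter and 0 to 1 with 1 library left out. With the replicate number as a block the calls were again Asb4, Dlk1, Kcnq1ot1 and Meg3, so 4 were higher. The numbers were not taken to pair the libraries, since no label says that a number marks a litter, batch or day. Deviations of same-numbered libraries correlated at −0.0045, 0.123 and 0.085. The highest correlations of each PHF2 t/g library with a WT library of another number were 0.014, −0.069 and 0.067. Whether same-numbered libraries were handled together was not tested. Replicates 2 and 3 correlated best with their own number and replicate 1 with another. The hippocampal marker C1ql2 was low in both replicate 3 libraries (1.29 and 1.36 CPM, against 5.33 to 9.80), as were Lct and Dsp.

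Signs changed for 7 genes and 1 ratio. With library size alone Ppp1r9a was at 0.086. Without both libraries Impact, at 0.30 with all libraries, was at −0.037, Igf2r, at 0.32, was at −0.075, and Peg13 was at 0.037. With 1 library left out Phf2 ranged from −0.051 to 0.092, Gnas from −0.022 to 0.28, Ppp1r9a from −0.047 to 0.0040, Trappc9 from −0.0082 to 0.078, and the log2 ratio of Cdkn1c to Kcnq1ot1 from −0.46 to 0.014. The cause of these changes was not tested. Genes at a few CPM, such as Asb4, rest on 6 to 42 counts per library.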
